A study of Mus musculus with 10 samples.

Results

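The genes described here are 41 macrophage and myeloid genes, taken as a set list of gene symbols, and they were followed in mouse trigeminal ganglia after nerve surgery and after a local peptide injection. A row was found for each of the 41 genes by its Ensembl identifier, among 26411 gene rows in the surgery table and 55886 in the injection table. At day 10 after pIONT, 14 of the 39 members that could be tested were higher than after sham surgery, beside 10.5% of all tested genes. Another 2 were lower, beside 12.3% of all tested genes. The steepest rises of the 14 higher members were between 3.60-fold and 5.67-fold in mean level. They were in the cathepsin S gene Ctss, galectin-3 gene Lgals3, lipid receptor gene Trem2, membrane protein gene Ms4a7, pore-forming gene Mpeg1 and class II gene H2-Eb1. The actin-bundling gene Lcp1 and the secreted-factor gene Retnla fell. At 6 hours after injection of UCN1, 1 of 40 tested members passed the same test, beside 0.601% of all tested genes. It was again Retnla, which was lower, on 4 reads after UCN1 against 42 after PBS. This call held in 6 of 17 alternatives.

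Macrophages live in sensory ganglia around the neuron cell bodies and their satellite glia, and further populations lie along vessels and in the connective tissue capsule. They sense damage and debris through Fc receptors, TREM2 and scavenger receptors, pass the signal on through ITAM adaptors such as DAP12, and digest what they take up in lysosomes rich in cathepsins. After a peripheral nerve is cut, macrophages around the injured cell bodies are known to increase in number and to change their gene expression.

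All libraries were made from total RNA of whole trigeminal ganglion, the ganglion that holds the sensory neurons of the face. The surgery experiment compared 3 sham libraries with 3 pIONT libraries, all taken at day 10. The labels do not spell out pIONT, which in work on facial pain usually stands for partial transection of the infraorbital nerve. The injection experiment compared 2 libraries taken 6 hours after PBS was injected into the ganglion with 2 taken 6 hours after UCN1, or urocortin 1, a peptide of the corticotropin-releasing factor family. The labels give no strain, sex, age or pooling for any group and do not say that libraries came from separate animals, so each p-value measures the spread between these libraries, which may be technical. The deposited unit was FPKM, fragment counts scaled to gene length and library size. Read totals recovered from those values were about 24120000 to 29610000 per surgery library and 15690000 to 17050000 per injection library. Both tables were normalized apart, and levels are compared only within a table. In whole ganglia, fewer cells of a type and less RNA per cell cannot be told apart.

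The surgery libraries were uneven in other tissue. Transcripts of 5 pituitary markers summed to 764.5 FPKM in sham 1, against 80.72 in sham 2, 254.9 in sham 3 and 116.9 to 131.9 in the pIONT libraries. The 12 neutrophil markers reached 254.8 FPKM in sham 3 and lay between 21.29 and 103.0 in the other 5 libraries. None of the 10 sensory neuron markers was at 0, and they summed to 4449 to 4873 FPKM over all 6 libraries, though 3 were higher and 5 lower after pIONT, such as Stmn2 (187 ± 10.6 to 457 ± 38.0 FPKM) and Snap25 (208 ± 11.8 to 139 ± 18.8 FPKM, SD, n = 3 each). Of 9 Schwann cell markers 6 were lower, and the list summed to 4624 to 5117 FPKM in sham and 3834 to 4107 in pIONT. Of 10 satellite glia markers 3 were higher, and the list, which includes the macrophage-expressed gene Apoe, summed to 2610 to 2790 FPKM in sham and 2999 to 3697 in pIONT. Of all tested genes, 10.5% were higher and 12.3% lower. The part of these tissues and cells in the results for the myeloid genes was not tested.

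In the surgery comparison, 14 of 39 tested members (35.9%) were higher at an adjusted p under 0.05 in limma, which was also so for 10.5% of all 14672 tested genes. The 2 lower members (5.13%) stood beside 12.3% of all tested genes. At an unadjusted p under 0.05 there were 26 of 39 members, beside 5434 of all 14672 tested genes. Msr1 and Folr2 did not reach the minimum mean level of 0.5 FPKM and were not tested. The median log2 fold change of the tested members was 0.69, against -0.02 over all tested genes, and 34 of the 39 values were above 0. In 21 members every pIONT library was above every sham library, in 2 every pIONT library was below, and in 16 the groups overlapped. Among all tested genes, 18.7% lay wholly above and 24.7% wholly below. The calls depended on the libraries: without sham 2 or without sham 3 only 4 members were higher and 1 lower, without sham 1 the counts were 16 and 2, and without pIONT 2 they were 11 and 2. The median log2 fold change ranged from 0.47 without sham 2 to 0.85 without sham 1. H2-Eb1, Lgals3, Spp1 and Lcp1 passed the test in all 20 alternatives that were run.

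**Figure D1:**
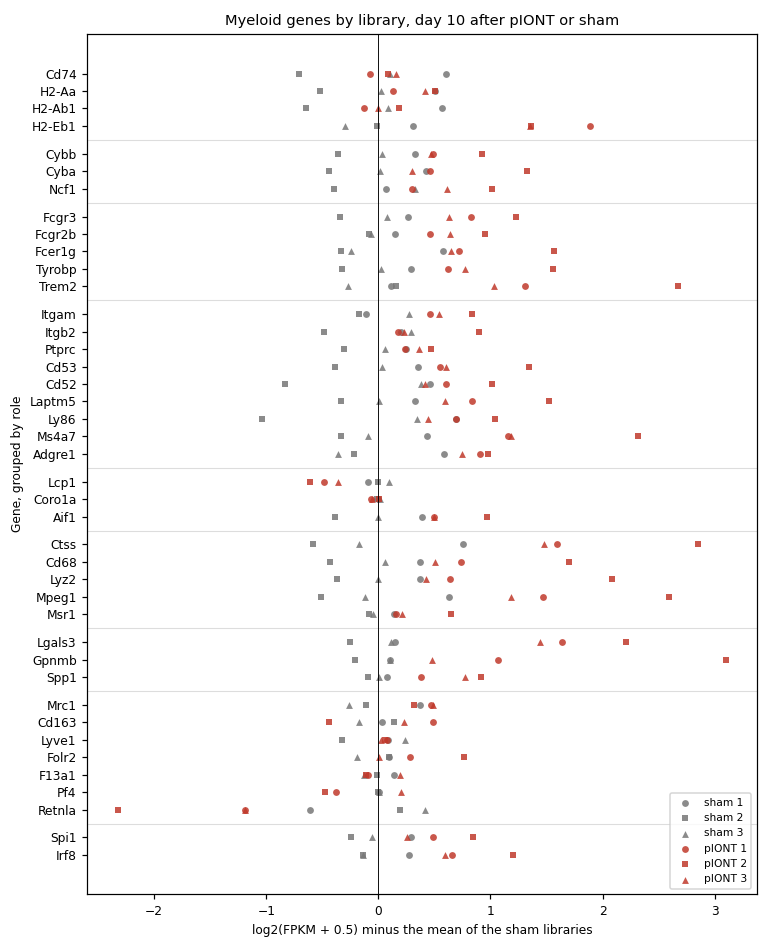
Each point is the log2(FPKM + 0.5) of a member gene in a surgery library minus the mean of the sham libraries (x axis), with genes by role on the y axis, grey for the 3 sham and red for the 3 pIONT libraries. The pIONT points lie to the right for most Fc receptor, lysosomal and lipid-associated genes, with pIONT 2 (squares) farthest out in many, and to the left for Lcp1 and Retnla.

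The transcription factor genes Spi1 and Irf8 head the macrophage programme. Irf8, an interferon regulatory factor needed for monocyte and macrophage development, rose. It measured 0.947, 0.592 and 0.588 FPKM in sham 1 to 3 and 1.39, 2.25 and 1.31 in pIONT 1 to 3, so that all pIONT libraries were above all sham libraries (log2 fold change 0.82 ± 0.19 SE, adjusted p = 0.0245). Without sham 2 or sham 3, Irf8 did not pass. Spi1, which encodes PU.1, the master factor of the lineage, had means of 1.98 ± 0.476 (SD, n = 3) FPKM in sham and 3.09 ± 0.747 (SD, n = 3) in pIONT and did not pass (log2 fold change 0.53, adjusted p = 0.0804). Its groups overlapped, because pIONT 3 (2.42 FPKM) was below sham 1 (2.50 FPKM). Of 11 other myeloid transcription factor genes tested, 3 were higher and 1 lower, beside 10.5% and 12.3% of all tested genes. Bhlhe41, a repressor expressed in several macrophage types, went from 4.38 ± 0.243 to 9.21 ± 0.597 FPKM (SD, n = 3 each), and Cebpd from 3.57 ± 0.361 to 4.96 ± 0.182 FPKM. Runx1 went down from 3.88 ± 0.179 to 3.17 ± 0.152 FPKM, and which cells of the ganglion expressed it was not tested.

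PU.1 binds purine-rich DNA around the letters GAGGAAGT. RefSeq windows running from 250 bases before to 50 bases after a gene's start (build GRCm38.p6) were matched to 32 of the 41 members, and 6 of these 32 genes (18.8%) held GAGGAAGT or its reverse complement ACTTCCTC: Cd53, Ctss, F13a1, Pf4, Retnla and Spp1. The same letters were found for 3.69% of the 27025 genes with such a window. The shorter core GAGGAA, which lies within the longer motif, was held by 16 of the 32 members and 31.3% of all genes. The windows of 4 of these genes are printed to base 30 after the start because they cover each outcome after pIONT: Ctss and Spp1 rose, Retnla fell and Pf4 was not called. In GRCm38, the build of the injection table, the gene bodies are chr3:95526786-95556403 for Ctss and chr5:104435118-104441050 for Spp1, and chr16:48842551-48844461 for Retnla. All 4 genes lie on the plus strand, and capitals mark the motif on either strand.
Ctss, chr3:95526536-95526815: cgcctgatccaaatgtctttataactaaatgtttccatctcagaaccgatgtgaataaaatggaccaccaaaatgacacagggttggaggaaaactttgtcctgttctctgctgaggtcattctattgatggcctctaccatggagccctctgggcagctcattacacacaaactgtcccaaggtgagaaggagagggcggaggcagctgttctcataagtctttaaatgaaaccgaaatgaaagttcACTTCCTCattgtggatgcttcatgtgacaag
Spp1, chr5:104434861-104435140: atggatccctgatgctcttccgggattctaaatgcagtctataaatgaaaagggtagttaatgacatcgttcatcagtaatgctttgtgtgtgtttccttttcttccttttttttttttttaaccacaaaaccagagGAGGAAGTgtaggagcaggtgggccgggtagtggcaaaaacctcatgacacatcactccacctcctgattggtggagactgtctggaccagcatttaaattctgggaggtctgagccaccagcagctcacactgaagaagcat
Retnla, chr16:48842359-48842638: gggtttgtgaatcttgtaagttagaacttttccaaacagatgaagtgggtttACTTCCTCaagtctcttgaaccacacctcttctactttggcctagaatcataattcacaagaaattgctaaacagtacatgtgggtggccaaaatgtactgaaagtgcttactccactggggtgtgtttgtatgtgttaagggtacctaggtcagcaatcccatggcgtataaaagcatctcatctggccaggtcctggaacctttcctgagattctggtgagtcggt
Pf4, chr5:90772185-90772464: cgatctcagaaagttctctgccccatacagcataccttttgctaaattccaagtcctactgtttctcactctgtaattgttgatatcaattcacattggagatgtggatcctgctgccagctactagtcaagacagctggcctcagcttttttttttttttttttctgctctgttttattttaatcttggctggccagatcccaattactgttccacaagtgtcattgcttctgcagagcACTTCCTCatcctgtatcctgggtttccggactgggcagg
Counted from the RefSeq start, the motif begins 2 bases before it in Ctss, 10 in Pf4, 113 in Spp1 and 198 in Retnla. That start lies after the gene body start given above in Retnla and before it in Spp1. Genes that hold the motif thus rose, fell or were not called, and a match of letters is a description of the window, not a binding site.

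Of the 5 Fc receptor and ITAM adaptor genes, 4 rose after pIONT, none fell, and in all 5 the groups did not overlap. Trem2, the receptor for lipids and cell debris that signals through DAP12, was at 0.716, 0.753 and 0.428 FPKM in the sham libraries. It was at 2.28, 6.68 and 1.79 FPKM in pIONT 1 to 3, a 5.67-fold higher mean (log2 fold change 1.67 ± 0.40 SE, adjusted p = 0.0266). Every pIONT value was more than 2-fold above every sham value, and pIONT 2 stood far above the other pIONT libraries. Tyrobp, which encodes DAP12 itself, measured 12.9, 8.24 and 10.6 FPKM in sham and 16.3, 31.7 and 18.1 FPKM in pIONT (log2 fold change 0.98 ± 0.26 SE, adjusted p = 0.0356). Fcgr3, an activating receptor for the Fc part of IgG, went from 5.53, 3.45 and 4.80 FPKM to 8.38, 11.2 and 7.28 FPKM (log2 fold change 0.89 ± 0.19 SE, adjusted p = 0.0187). Its inhibitory counterpart Fcgr2b was low, at 0.851, 0.655 and 0.666 FPKM in sham and 1.18, 1.87 and 1.40 FPKM in pIONT (log2 fold change 0.69 ± 0.14 SE, adjusted p = 0.0161). Both receptor genes were thus higher in each pIONT library than in any sham library, though they are close in sequence and the counting could split their reads. Fcer1g, the common gamma chain that pairs with Fc receptors, had a fold change of 2.03 in mean level but did not pass (adjusted p = 0.0647), with sham 1 at 11.7 FPKM close to pIONT 3 at 12.3 FPKM. Without sham 2 or sham 3, Trem2, Tyrobp and Fcgr2b lost their calls. Fcgr3 lost its call without sham 3, Trem2 also without sham 1 and Tyrobp also without pIONT 3. Among 12 further genes of TREM2-DAP12 and Fc receptor signalling, 4 were higher and none lower, beside 10.5% and 12.3% of all tested genes. Of these 12, 8 were at an unadjusted p under 0.05, beside 5434 of all 14672 tested genes. Pik3cg, the myeloid PI3-kinase gamma, went from 0.318 ± 0.0353 to 1.056 ± 0.225 FPKM (SD, n = 3 each), Vav1 from 0.918 ± 0.209 to 1.93 ± 0.601, and the inhibitory phosphatase gene Inpp5d from 0.974 ± 0.239 to 1.76 ± 0.383.

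Among 9 leukocyte surface and signalling genes, 4 rose and 5 were not called, and all 9 had a log2 fold change above 0. Ms4a7, a four-span membrane protein gene of macrophages, went from 1.35, 0.586 and 0.782 FPKM to 2.56, 6.32 and 2.62 FPKM (log2 fold change 1.55 ± 0.34 SE, adjusted p = 0.0195). Adgre1, which encodes the macrophage marker F4/80, went from 6.34, 3.43 and 3.05 FPKM to 8.06, 8.50 and 7.18 FPKM (log2 fold change 0.88 ± 0.23 SE, adjusted p = 0.0355). Laptm5, a lysosomal membrane gene of blood cells, went from 5.88, 3.55 and 4.62 FPKM to 8.601, 14.2 and 7.19 FPKM (log2 fold change 0.98 ± 0.26 SE, adjusted p = 0.0342). In these 3 genes sham 1 was the highest sham library but still below each pIONT library. Itgam, the CD11b integrin chain, was low at 0.421, 0.381 and 0.702 FPKM in sham and 0.864, 1.27 and 0.941 FPKM in pIONT (log2 fold change 0.61 ± 0.16 SE, adjusted p = 0.0346). In the GRCm38 annotation 68.7% of its exon bases are shared with Gm49368 on the same strand, so its reads may be divided. Adgre1, Laptm5 and Ms4a7 lost their calls without sham 2 or sham 3, and Itgam without sham 1 or sham 2. Adgre1 and Itgam also lost theirs without any one of the pIONT libraries, and Laptm5 without pIONT 1 or pIONT 2. The partner chain Itgb2 (log2 fold change 0.43), the CD45 gene Ptprc (0.36), the tetraspanin gene Cd53 (0.83), Cd52 (0.68) and the MD-1 gene Ly86 (0.73) were not called, at adjusted p-values from 0.0564 for Cd53 to 0.275 for Itgb2. Cd53 was called in 2 alternatives, voom on recovered reads and a minimum mean of 2 FPKM.

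The 3 NADPH oxidase subunit genes Cybb, Cyba and Ncf1, whose proteins make superoxide in phagosomes, had log2 fold changes of 0.63, 0.69 and 0.64. None passed in limma (adjusted p = 0.0588, 0.151 and 0.0884), 2 were at an unadjusted p under 0.05, and voom on recovered reads called 1, Cybb. Cybb, the catalytic chain, was at 2.53, 1.38 and 1.96 FPKM in sham and 2.88, 4.07 and 2.84 FPKM in pIONT. The groups did not overlap, but sham 1 lay close to the lower pIONT libraries. Of 5 other subunits of the complex, 3 rose, beside 10.5% of all tested genes. Rac1 went from 47.6 ± 0.821 to 56.2 ± 3.13 FPKM (SD, n = 3 each), Ncf4 from 1.40 ± 0.285 to 2.58 ± 0.661 and the chaperone gene Cybc1 from 13.5 ± 0.288 to 15.5 ± 1.00. Without pIONT 2, 1 of these 5 was called.

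The 4 class II antigen presentation genes did not move together. H2-Eb1, the beta chain of the I-E molecule, rose from 1.76, 1.31 and 0.981 FPKM in sham to 6.24, 4.18 and 4.17 FPKM in pIONT (log2 fold change 1.53 ± 0.20 SE, adjusted p = 0.00331). Its lowest pIONT library was above its highest sham library by more than 2-fold, and pIONT 1, not pIONT 2, was the highest. Cd74, the invariant chain that escorts class II molecules, measured 126, 50.6 and 88.8 FPKM in sham and 78.3, 88.1 and 92.2 FPKM in pIONT, so the pIONT libraries lay inside the range of the sham libraries (log2 fold change 0.06, 95% interval -0.64 to 0.75). The I-A beta and alpha chain genes were also not called, with H2-Ab1 at 18.9 ± 7.76 and 18.2 ± 2.04 FPKM and H2-Aa at 10.0 ± 3.66 and 12.5 ± 1.71 FPKM in sham and pIONT (SD, n = 3 each). Within each library, the level of H2-Eb1 was 0.0661, 0.117 and 0.0519 of that of H2-Ab1 in sham 1 to 3 and 0.382, 0.205 and 0.234 of it in pIONT 1 to 3. The ratio of H2-Aa to H2-Ab1 was 0.516 to 0.584 in sham and 0.648 to 0.732 in pIONT. Both ratios were thus higher in all pIONT libraries than in any sham library, and they compare chains whose reads can be confused because the genes are alike. None of 8 tested genes of the class II pathway beyond these was called in limma or with voom. At an unadjusted p under 0.05 there were 2 of these 8, beside 5434 of all 14672 tested genes. The thiol reductase gene Ifi30 was at 11.9 ± 1.66 FPKM in sham and 14.7 ± 3.35 in pIONT, and the class II regulator gene Rfxap at 14.8 ± 0.569 and 13.1 ± 0.758.

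In the group of lysosomal, killing and scavenging genes, 2 of 4 tested members rose, and in all 5 members each pIONT library was above each sham library. Ctss encodes cathepsin S, a lysosomal protease that trims the invariant chain and can be released by macrophages and microglia. It went from 29.5, 11.3 and 15.2 FPKM to 53.1, 127.6 and 48.7 FPKM, with the largest log2 fold change of the 39 tested members (1.97 ± 0.45 SE, adjusted p = 0.0221). Mpeg1, which encodes the pore-forming protein perforin-2, went from 6.85, 2.85 and 3.90 FPKM to 12.7, 28.2 and 10.3 FPKM (log2 fold change 1.75 ± 0.41 SE, adjusted p = 0.0247). In both genes pIONT 2 was more than 2-fold above the other pIONT libraries, and sham 1 was the highest sham library. Lyz2, lysozyme M, was at 136, 81.5 and 105 FPKM in sham and at 164, 449 and 142 FPKM in pIONT, and it was not called (log2 fold change 1.05 ± 0.43 SE, adjusted p = 0.121). Its near copy Lyz1 may share its reads. The sialomucin gene Cd68 behaved alike, with 5.82 ± 1.70 and 12.5 ± 6.16 FPKM (SD, n = 3 each) and an adjusted p of 0.0747. The scavenger receptor gene Msr1, not tested, lay between 0.225 and 0.345 FPKM in sham and between 0.358 and 0.703 FPKM in pIONT. The call of Ctss was lost without sham 2 or sham 3, and so was that of Mpeg1, which was also lost without pIONT 1.

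Of the 3 genes tied to lipid handling and phagocytosis, Lgals3 and Spp1 rose and Gpnmb was not called. Lgals3 encodes galectin-3, a sugar-binding protein that macrophages secrete and recruit to damaged lysosomes. It was at 8.29, 6.14 and 8.06 FPKM in sham and 24.2, 36.2 and 21.1 FPKM in pIONT (log2 fold change 1.76 ± 0.20 SE, adjusted p = 0.00218). Every pIONT library was more than 2-fold above every sham library. Spp1, which encodes osteopontin and is also expressed by sensory neurons, went from 83.6, 74.3 and 79.6 FPKM to 102.9, 149.9 and 135.8 FPKM (log2 fold change 0.69 ± 0.13 SE, adjusted p = 0.0121). The groups did not overlap, and 18.8% of the exon bases of Spp1 are shared with Gm42793 on the same strand. Gpnmb, a glycoprotein of lipid-laden macrophages, was at 0.667, 0.438 and 0.662 FPKM in sham and 1.77, 8.82 and 1.01 FPKM in pIONT (log2 fold change 1.55 ± 0.61 SE, adjusted p = 0.112). The 6.56-fold higher mean of Gpnmb rested on pIONT 2: the other pIONT libraries together were 2.36 times the sham mean. Among 15 other lipid and lysosome genes of phagocytes, 8 rose and 1 fell, beside 10.5% and 12.3% of all tested genes. Abca1, the cholesterol exporter, went from 8.46 ± 0.197 to 30.3 ± 3.68 FPKM (SD, n = 3 each), the lipid droplet gene Plin2 from 13.5 ± 0.531 to 38.3 ± 5.93, and cathepsin B, Ctsb, from 291 ± 4.54 to 398 ± 25.2. These 3 are expressed in many cell types besides macrophages.

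Of the 3 cytoskeletal genes, 1 fell and 2 were not called. Lcp1, which encodes L-plastin, an actin-bundling protein of leukocytes, fell from 22.9, 24.5 and 26.2 FPKM in sham to 17.4, 15.9 and 19.0 FPKM in pIONT (log2 fold change -0.48 ± 0.08 SE, adjusted p = 0.00657). Each pIONT library was below each sham library, and 5.6% of its exon bases overlap genes on the opposite strand. Coro1a, the actin regulator coronin-1A, was nearly level, at 38.8, 38.5 and 39.2 FPKM in sham and 37.1, 39.0 and 37.4 FPKM in pIONT (log2 fold change -0.04, 95% interval -0.13 to 0.05). Aif1, which encodes the macrophage marker IBA1, was above sham in every pIONT library, with means of 6.33 ± 1.81 and 10.1 ± 2.12 FPKM (SD, n = 3 each), and was not called in limma on FPKM (log2 fold change 0.65 ± 0.21 SE, adjusted p = 0.0647) but was with voom. The 3 genes are all used as leukocyte cytoskeleton markers, and their log2 fold changes thus ran from -0.48 to 0.65. Sham 1, the highest sham library in 30 of 39 tested members, was the lowest for Lcp1. Which cells of the ganglion expressed Lcp1 and Coro1a was not tested.

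None of the tested genes of tissue-resident and perivascular macrophages rose: of 6, Retnla fell and 5 were not called. Retnla encodes RELM-alpha, a secreted factor of alternatively activated and perivascular macrophages. It was at 1.52, 3.02 and 3.60 FPKM in sham and 0.849, 0.115 and 0.846 FPKM in pIONT (log2 fold change -1.57 ± 0.37 SE, adjusted p = 0.0257). All pIONT libraries were below all sham libraries, with the lowest value in pIONT 2. Over each group these levels correspond to 129 and 30 reads, a rate 0.221 of that in sham (exact 95% interval 0.144 to 0.331, counting error only). The mannose receptor gene Mrc1 (log2 fold change 0.42, adjusted p = 0.0941), the haemoglobin scavenger receptor gene Cd163 (0.09), the hyaluronan receptor gene Lyve1 (0.05), the coagulation factor gene F13a1 (-0.00) and the chemokine gene Pf4 (-0.22) had overlapping groups. Folr2, not tested, was at 0.241 to 0.405 FPKM in sham and 0.349 to 0.932 in pIONT, and 63.1% of its exon bases overlap an opposite-strand gene. Retnla was not called without sham 2 or sham 3. Among 14 further resident macrophage genes tested, 4 were higher and 3 lower, beside 10.5% and 12.3% of all tested genes. The endocytic receptor gene Stab1 went from 4.55 ± 0.772 to 7.46 ± 0.582 FPKM (SD, n = 3 each), whereas Maf, a transcription factor gene also used by sensory neurons, went from 21.2 ± 0.364 down to 17.2 ± 0.818.

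The library pIONT 2 stood apart in these genes. It was the highest pIONT library in 30 of 39 tested members (76.9%), against 37.5% of all tested genes. Its level was at least 1.5 times the mean of the other pIONT libraries in 16 of 39 members, against 3.39% of all tested genes, and the median ratio was 1.43 against 1.00. The ratio was 6.35 for Gpnmb, 3.28 for Trem2, 2.93 for Lyz2, 2.51 for Ctss, 2.45 for Mpeg1 and 2.44 for Ms4a7. It was under 1 for H2-Eb1 (0.803), Pf4 (0.734), Cd163 (0.486) and Retnla (0.135). Among the resident macrophage genes the ratio thus ran from 0.135 for Retnla through 1.01 for Lyve1 to 2.12 for Folr2, which was too low to be tested. The sham libraries also had an order, with sham 1 highest and sham 2 lowest in 30 of 39 members each, against 36.9% and 36.6% of all tested genes.

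**Figure D2:**
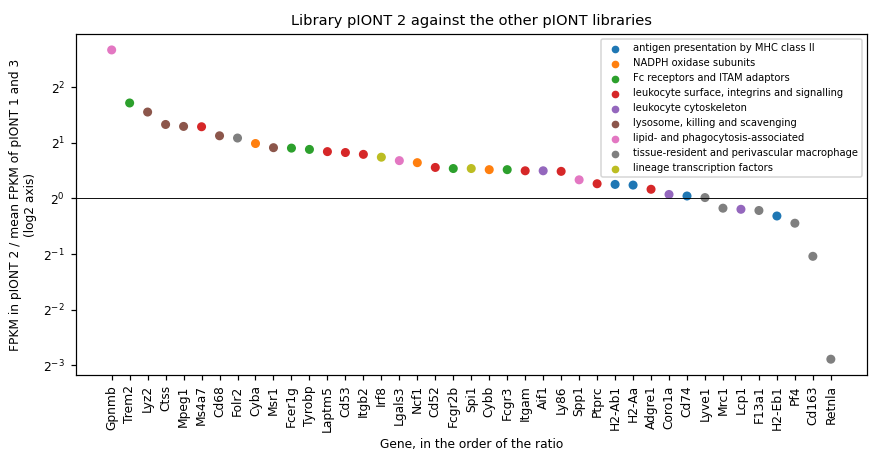
The y axis (log2 scale) gives the FPKM of each member gene in library pIONT 2 divided by the mean FPKM of pIONT 1 and pIONT 3, with genes ordered by that ratio on the x axis and coloured by role. The ratio runs from 6.35 for Gpnmb to 0.135 for Retnla, and the line marks a ratio of 1.

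Some marker lists of other cells were also at their highest sum in pIONT 2. Others were not: the neutrophil list (21.29 FPKM) and the red blood cell list (85.03 FPKM) were at their lowest there. The 10 fibroblast and meningeal markers summed to 381.9 FPKM there, against 239.6 and 240.9 in pIONT 1 and 3 and 189.8 to 254.8 in sham. The 10 cell cycle genes summed to 13.48 FPKM there, against 5.475 and 5.505 in pIONT 1 and 3 and 3.971 to 7.999 in sham. None of either list was at 0 in every library, and neither list had a gene called in limma or with voom, with 1 gene of each at an unadjusted p under 0.05. The satellite glia list summed to 3697 FPKM there, against 3158 in pIONT 1 and 2999 in pIONT 3, and the mast cell list to 27.94 FPKM, against 23.90 and 17.63. The part of these cells in the high values of pIONT 2 was not tested.

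Genes outside the 41 were counted in the same way, and 10.5% of all tested genes were higher and 12.3% lower. At an unadjusted p under 0.05 there were 5434 of all 14672 tested genes. Of 21 other macrophage genes tested, 12 rose and none fell. Fcrls went from 5.43 ± 1.31 to 15.2 ± 3.43 FPKM (SD, n = 3 each), the CSF1 receptor gene Csf1r from 7.85 ± 1.95 to 16.9 ± 2.52 and the efferocytosis receptor gene Mertk from 4.00 ± 0.451 to 5.81 ± 0.597. Without pIONT 2, 5 of the 21 were called. None of 11 neutrophil, 5 monocyte, 4 T and NK cell or 2 B cell markers tested was called in limma or with voom, with 0, 2, 0 and 1 of them at an unadjusted p under 0.05. The monocyte receptor gene Ccr2 was at 0.916 ± 0.432 FPKM in sham and 1.78 ± 0.535 in pIONT, and the neutrophil gene S100a9 at 58.2 ± 59.8 and 22.5 ± 21.9. Of 6 mast cell markers, the protease genes Tpsab1 (0.225 ± 0.0326 to 1.31 ± 0.510 FPKM) and Cma1 (2.16 ± 0.621 to 4.62 ± 1.65 FPKM) rose. Of 5 tested markers best known from brain microglia, 3 rose: Tmem119 from 0.707 ± 0.289 to 4.12 ± 1.99 FPKM, Gpr34 from 0.745 ± 0.128 to 2.57 ± 0.885 and P2ry12 from 2.59 ± 0.337 to 4.48 ± 0.166. Peripheral ganglion macrophages can also express these genes. The summed level of this marker list was 45.61 to 48.61 FPKM in sham and 55.49 to 77.95 in pIONT, with none of its genes at 0, and its part in the member genes was not tested.

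At 6 hours after injection into the ganglion, UCN1 was compared with PBS. Of 40 tested members, none was higher and 1 (2.50%) was lower in limma, beside 0.304% and 0.297% of all 16139 tested genes. At an unadjusted p under 0.05 there were 12 members, beside 2113 of all 16139 tested genes. Voom on recovered reads called none higher and 2 lower, H2-Aa and H2-Ab1. The median log2 fold change of the members was -0.09, against -0.01 over all tested genes, and 16 of 40 values were above 0. In 7 members both UCN1 libraries were above both PBS libraries, in 10 they were below and in 23 the groups overlapped. For all tested genes these shares were 21.8% above and 23.7% below. Without PBS 1 the median was 0.12, and without PBS 2 it was -0.21, so its direction hung on single libraries. With any library left out no member was called, but then 1 group holds a single library, which is assumed to vary like the other group.

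**Figure D3:**
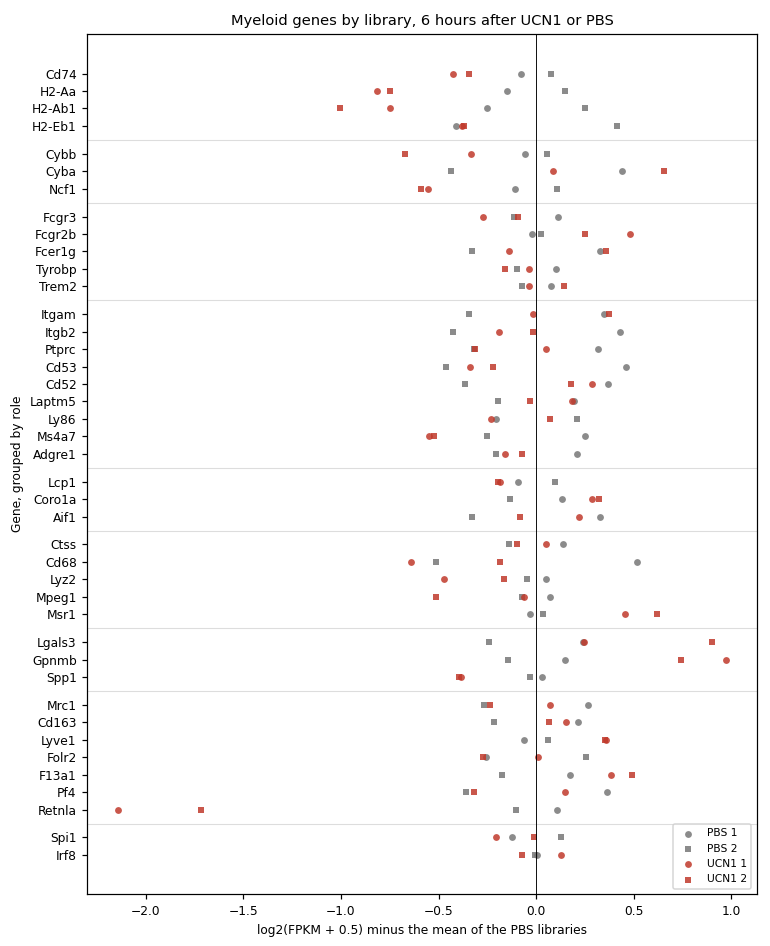
Each point is the log2(FPKM + 0.5) of a member gene in an injection library minus the mean of the PBS libraries (x axis), with genes by role on the y axis, grey for the 2 PBS and red for the 2 UCN1 libraries. Retnla lies far to the left in both UCN1 libraries, H2-Aa and H2-Ab1 lie to the left and Gpnmb to the right, and most other genes overlap.

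Retnla was at 2.34 and 1.96 FPKM after PBS and 0.0979 and 0.303 FPKM after UCN1 (log2 fold change -1.93 ± 0.32 SE, adjusted p = 0.0488). Both UCN1 libraries were below both PBS libraries by more than 5-fold. The levels rest on few reads, 42 after PBS and 4 after UCN1, a rate 10.8-fold lower (exact 95% interval 3.91 to 41.3, counting error only). The call held in 6 of 17 alternatives, and voom on recovered reads was not among them. Other tissue moved in the same direction between the same libraries: 6 pituitary markers summed to 122.4 and 123.6 FPKM after PBS and 9.14 and 9.61 FPKM after UCN1, with 3 of 5 tested called lower. Of all tested genes, 0.297% were called lower. Lhb was at 0 in all 4 libraries. Of 10 fibroblast and meningeal markers, 3 were also lower, with Mfap4 at 42.9 ± 2.80 and 1.14 ± 0.186 FPKM, Slc47a1 at 5.00 ± 0.864 and 0.0835 ± 0.118 FPKM and Fmod at 23.2 ± 14.2 and 0.878 ± 0.303 FPKM (SD, n = 2 each). The list as a whole summed to 898.5 to 1185 FPKM after PBS and 882.8 to 902.9 FPKM after UCN1, and Slc47a1 was at 0 in UCN1 2. In the other direction, the glial gene Gfap was higher after UCN1, at 2.63 and 1.35 FPKM after PBS and 6.81 and 7.39 FPKM after UCN1 (log2 fold change 1.66 ± 0.26 SE, adjusted p = 0.0462). The part of these tissues in the level of Retnla was not tested.

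The class II genes were all lower in mean level after UCN1, and none was called. H2-Aa measured 12.3 and 15.2 FPKM after PBS and 7.55 and 7.92 FPKM after UCN1 (log2 fold change -0.78 ± 0.15 SE, adjusted p = 0.0834). H2-Ab1 measured 19.4 and 27.7 FPKM after PBS and 13.6 and 11.3 FPKM after UCN1 (log2 fold change -0.88 ± 0.18 SE, adjusted p = 0.1004). In both genes both UCN1 libraries lay below both PBS libraries, which was also so for 23.7% of all tested genes. H2-Aa and H2-Ab1 were called in 4 and 3 of 18 alternatives, among them voom. Cd74 was at 34.1 and 37.9 FPKM after PBS and at 26.6 and 28.2 FPKM after UCN1 (log2 fold change -0.39 ± 0.10 SE, adjusted p = 0.189). For H2-Eb1 the groups overlapped, at 6.55 and 11.999 against 6.72 and 6.77 FPKM. None of 8 further class II pathway genes tested was called in limma or with voom, nor was any at an unadjusted p under 0.05.

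Among the other members after UCN1, Gpnmb had the highest fold change, from 1.95 and 1.50 to 3.86 and 3.21 FPKM (log2 fold change 0.86 ± 0.22 SE, adjusted p = 0.181). Spp1 was at 64.0 and 61.3 FPKM after PBS and 47.8 and 47.5 FPKM after UCN1 (log2 fold change -0.39 ± 0.09 SE, adjusted p = 0.120). The groups did not overlap in either gene, but 21.8% of all tested genes lay wholly above and 23.7% wholly below. Lcp1, at 166 and 190 against 156 and 155 FPKM, Lyz2, at 45.6 and 42.6 against 31.5 and 39.2 FPKM, and Coro1a, at 41.3 and 34.3 against 46.0 and 47.3 FPKM, were not called, and Laptm5 overlapped at 27.3 and 20.7 against 27.0 and 23.2 FPKM. The members that rose most after pIONT had no call after UCN1. The log2 fold change was -0.02 for Ctss (95% interval -0.42 to 0.37), 0.05 for Trem2 (-0.67 to 0.78), -0.29 for Mpeg1 (-0.81 to 0.23) and 0.57 for Lgals3 (-0.01 to 1.15). It was -0.54 for Ms4a7 (-1.31 to 0.24), with both UCN1 libraries below both PBS libraries, and -0.37 for H2-Eb1 (-0.94 to 0.20). The remaining members ran from -0.57 for Ncf1 to 0.54 for Msr1, and Folr2 was too low to be tested. No gene of the other macrophage, TREM2-DAP12 signalling, oxidase, phagocyte lipid, resident macrophage, transcription factor, monocyte or neutrophil lists was called, of 22, 11, 5, 15, 13, 11, 4 and 4 tested. At an unadjusted p under 0.05 there were 3, 0, 0, 3, 4, 3, 0 and 0 of them, beside 2113 of all 16139 tested genes. Voom called 2 of the resident macrophage genes lower and no other gene of these lists.

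**Figure D4:**
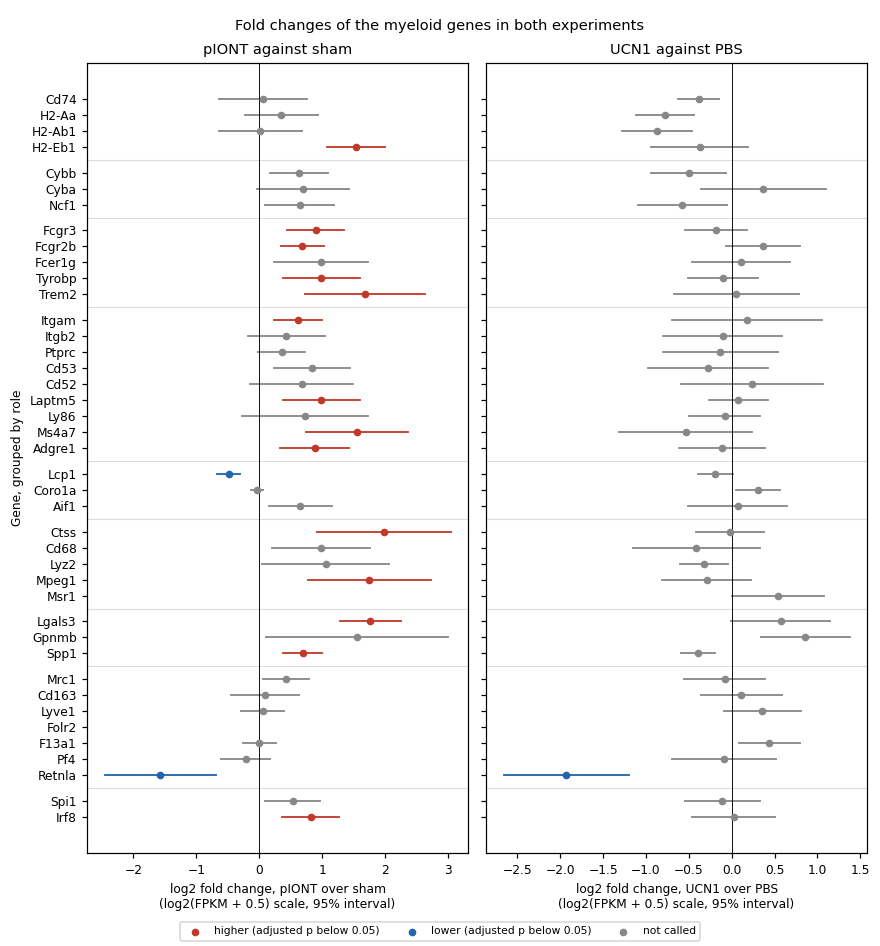
Log2 fold changes of each member gene with 95% intervals (x axes), pIONT over sham on the left and UCN1 over PBS on the right, red for higher, blue for lower and grey for not called; Msr1 was tested on the right only, and Folr2 in neither. After pIONT 14 genes are red and 2 blue, and after UCN1 Retnla alone is blue.

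Retnla and Gpnmb were the members with the lowest and the highest log2 fold change after UCN1, at -1.93 and 0.86, and they were at -1.57 and 1.55 after pIONT. Gpnmb was called in neither experiment. Of the members called higher after pIONT, some were below 0 after UCN1, such as Ms4a7 and Spp1, and others above, such as Lgals3 and Fcgr2b. The controls of both experiments are separate libraries. The difference between the experiments was not tested, since the tables were normalized apart and time and treatment differ.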

How the data were processed

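RNA was measured by RNA-seq in 10 libraries of whole mouse ganglion: 3 sham, 3 pIONT, 2 PBS and 2 UCN1, grouped by their titles. Libraries were prepared from total RNA with a NEBNext kit, per the labels' protocols. The authors deposited gene-level FPKM in a table for each experiment. STAR, HTSeq, DESeq2 and GRCm39 are named per the submitters' processing notes, with no version or role, and whether counting used strand was not stated. Gene coordinates equalled the GRCm38 annotation for 99.42% of identifiers in the injection table and 1.99% in the surgery table. Gene names came from that annotation, which matched 25166 and 55141 identifiers.

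The 41 genes and all other gene lists were chosen with earlier results of these data known. Each table was fitted alone with limma (version 3.58.1, R 4.3.3) and a trended prior variance, after adding a pseudocount of 0.5 to each FPKM and taking log2, for genes with a mean of at least 0.5 FPKM, two-sided, with Benjamini-Hochberg adjustment over all tested genes at a threshold of 0.05. Fold changes on this scale understate changes of low genes. Whole reads were recovered from FPKM and gene length (within 0.1 of a whole number for 92.1% to 92.6% of low surgery values and 98.8% to 99.0% of low injection values) and tested with voom as an alternative. Replicates differed by more than sampling noise in every group (chi-square per degree of freedom 6.21 to 16.1). The test was checked only on simulated reads in which genes varied independently, without library shifts such as that of pIONT 2. Members were all accounted for, with library values for those called or above 20 FPKM, and from other lists up to 3 called genes by p, or else the 2 most abundant. Other settings tried were the pseudocount, the filter, 3 scalings, 3 forms of the variance model, a replicate block and leaving out each library.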

Additional observations from a re-analysis of the deposited data

How the results depend on the processing

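Direction held for all 16 called surgery genes in every alternative, and for Retnla after injection. The 14 higher surgery members became 7 with no filter on low values, 7 with the replicate block and 4 to 16 with a library left out. The 2 lower members became 1 with no filter or a minimum of 2 FPKM, and 1 to 3 with a library left out. The median log2 fold change of 0.69 became 0.84 with voom and 0.47 to 0.85 with a library left out, and the 3344 calls among all genes became 2085 with the block and 1689 to 2969 with a library left out. After injection the 1 lower member became 0 with a pseudocount of 0.1, no filter, a minimum of 0.1 FPKM, TPM scaling, quantile normalization, no trend or any library left out, 2 with a minimum of 2 FPKM, robust moderation or voom, and 3 with the block. Its 97 calls among all genes became 2, 22 and 155 with no filter and minimums of 0.1 and 2 FPKM, 5 with no trend, 352 with voom, 260 with the block and 5 to 38 with a library left out, and the median of -0.09 became -0.21 to 0.12. Of the surgery calls, no filter lost Adgre1, Irf8, Itgam, Laptm5, Mpeg1, Retnla, Trem2 and Tyrobp, and the block lost Ctss, Fcgr3, Irf8, Itgam, Laptm5, Mpeg1 and Tyrobp. Robust moderation (11 higher) lost Laptm5, Mpeg1 and Tyrobp, no trend (12 higher) lost Adgre1 and Tyrobp, a minimum of 2 FPKM lost Fcgr2b, Irf8, Itgam and Retnla, and a minimum of 1 FPKM or array weights lost Itgam. After injection, the 2 lower members with a minimum of 2 FPKM or with voom were H2-Aa and H2-Ab1, without Retnla. The causes were not tested. Sign changes occurred in genes that were not called. With array weights the log2 fold change was -0.0074 for Cd74, -0.064 for H2-Ab1 and 0.011 for F13a1, with TPM scaling -0.018 for H2-Ab1, with median-of-ratios scaling 0.015 for F13a1, and with quantile normalization 0.0071 for Ctss after injection. With a library left out, the surgery values of Cd74 (-0.30 to 0.36), H2-Ab1 (-0.31 to 0.30), Cd163 (-0.11 to 0.36), Lyve1 (-0.11 to 0.17) and F13a1 (-0.10 to 0.068) spanned 0, as did those after injection of H2-Eb1 (-0.79 to 0.0401), Cyba (-0.068 to 0.81), Fcer1g (-0.22 to 0.44), Tyrobp (-0.20 to 0.0017), Trem2 (-0.035 to 0.14), Itgam (-0.17 to 0.52), Itgb2 (-0.53 to 0.32), Ptprc (-0.45 to 0.19), Cd53 (-0.74 to 0.18), Cd52 (-0.13 to 0.60), Laptm5 (-0.12 to 0.27), Ly86 (-0.29 to 0.13), Adgre1 (-0.32 to 0.091), Aif1 (-0.26 to 0.40), Ctss (-0.16 to 0.12), Cd68 (-0.93 to 0.10), Mrc1 (-0.35 to 0.18), Cd163 (-0.11 to 0.33), Pf4 (-0.45 to 0.27), Spi1 (-0.23 to 0.017) and Irf8 (-0.074 to 0.13). Deviations of libraries with the same number had correlations of -0.055, -0.202 and 0.068 after surgery and 0.039 after injection. With so few libraries a group, these values cannot show whether the numbers pair the libraries. The block is thus given as an alternative only. With 2 or 3 libraries a group and 1 to 17221 reads per member and library, low genes such as Retnla, Itgam and Msr1 are the least precise.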
